A study of Mus musculus with 6 samples.

Results

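The 9 genes described here mark luminal progenitor and alveolar cells of the mouse mammary gland and are not keratins: Kit, Aldh1a3, Lypd3, Cd14, Tspan8, Ehf, Sorbs2, Kcnn4 and Rab38. They were chosen by name from such markers, with earlier results of these data known. All 9 were found among the 17739 gene symbols of the table. The libraries came from mammary epithelial organoids, which are tissue fragments freed by digestion with pronase and collagenase and collected by brief centrifugation, of FVB mice on the first day of lactation. The wild-type group (3 mice) is labelled Wild Type, and the knockout group (3 mice) is labelled Nmi-/- and described as a conditional knockout of Nmi, each mouse giving 1 library. The sources used here do not give the promoter that drove the deletion, the deleted exons, the age of the mice, or whether the wild-type mice carried a floxed allele or Cre. Nmi binds Myc and STAT proteins, and per the series' description the libraries serve to ask how its loss bears on excess proliferation of the gland.

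The luminal layer of the mammary gland lines its ducts and alveoli. Most luminal progenitors lack the receptors for oestrogen and progesterone, and their alveolar descendants become the milk-secreting cells of lactation. Kit is the receptor tyrosine kinase for stem cell factor, Aldh1a3 makes retinoic acid from retinal, and Ehf is a transcription factor of the ETS family, as is the alveolar regulator Elf5. Cd14 is a co-receptor for bacterial lipopolysaccharide, Lypd3 is a membrane-anchored protein of the Ly6 and urokinase receptor family, and Tspan8 is a tetraspanin. Kcnn4 is a potassium channel opened by calcium, Sorbs2 is an adaptor that links signalling proteins to the actin cytoskeleton, and Rab38 is a small GTPase of lysosome-related organelles.

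ETS factors such as Ehf bind DNA around a GGAA core, Myc dimers bind the E-box, and STAT proteins bind TTCNNNGAA. The 250 bases before the annotated start are therefore shown for the 2 markers with the lowest fold changes, Lypd3 and Kit, and for Kcnn4, the tested marker with the smallest one. These are RefSeq sequences on GRCm38.p6, plus strand, 5′ to 3′, at chr7:24636320-24636569 (Lypd3), chr5:75574737-75574986 (Kit) and chr7:24370013-24370262 (Kcnn4). The RefSeq starts of Lypd3 and Kit lie inside the gene spans given below from another annotation, so their windows reach into those spans. The 3 promoters and the motifs were chosen after values and sequences had been seen. Capitals mark a match to GGAAGT, TTCNNNGAA or CACGTG on either strand.
Lypd3: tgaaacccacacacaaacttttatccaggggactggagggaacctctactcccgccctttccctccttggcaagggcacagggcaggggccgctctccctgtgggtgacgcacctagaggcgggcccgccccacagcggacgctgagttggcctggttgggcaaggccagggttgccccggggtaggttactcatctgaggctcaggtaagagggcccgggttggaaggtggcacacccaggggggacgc
Kit: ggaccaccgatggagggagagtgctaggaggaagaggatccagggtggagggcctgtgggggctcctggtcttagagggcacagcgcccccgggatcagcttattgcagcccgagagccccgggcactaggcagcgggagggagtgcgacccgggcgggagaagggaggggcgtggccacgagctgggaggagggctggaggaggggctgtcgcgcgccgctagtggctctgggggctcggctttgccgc
Kcnn4: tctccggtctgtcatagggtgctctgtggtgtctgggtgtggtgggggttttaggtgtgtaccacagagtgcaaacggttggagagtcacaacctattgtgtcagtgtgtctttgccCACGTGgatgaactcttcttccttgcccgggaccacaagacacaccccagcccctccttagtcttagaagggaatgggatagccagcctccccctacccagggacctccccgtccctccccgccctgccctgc
The Kcnn4 stretch holds 1 E-box, CACGTG, from base -133 relative to the start, and the letters of the 3 motifs are not in the Lypd3 and Kit windows. The shorter core GGAA, which is left in lower case, is in 93.4% of all promoter entries, and occurs 3 times in the Lypd3 window, 1 time in that of Kit and 2 times in that of Kcnn4. Across all 32851 promoter entries, windows of the same length hold GGAAGT in 19.7%, TTCNNNGAA in 7.02% and CACGTG in 6.02%; the letters of TTCNNNGAA can overlap those of GGAAGT. Windows were obtained for 5 of the 9 markers. Among the windows not printed, 1 of the 3 starts of Sorbs2 holds GGAAGT. The Tspan8 window and that of another Kit start hold none of the 3 motifs. Aldh1a3, Ehf and Rab38 were not matched. Entries on the chromosome of Cd14 were left out when the markers were matched, so Cd14 was not searched. A match is a stretch of letters and not a measured binding site.

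On the annotation of the same build, Lypd3 lies on chromosome 7 at 24636550 to 24641118 and Kcnn4 at 24370263 to 24386690, both on the plus strand with 249.9 kb and 12 protein-coding genes between them. Kit lies on chromosome 5 at 75574916 to 75656722 on the plus strand, Ehf on chromosome 2 at 103263433 to 103303278 on the minus strand, and Aldh1a3 on chromosome 7 at 66390890 to 66427517 on the minus strand. Tspan8 spans 115816832 to 115849893 on chromosome 10, Sorbs2 45507788 to 45827906 on chromosome 8, and Rab38 88430273 to 88491572 on chromosome 7, each on the plus strand. The position of Cd14 is not reported here. Exons of Lypd3, Sorbs2 and Tspan8 overlap an annotated antisense gene. The sources used here do not say whether counting used strand, so reads of these 3 genes cannot be told apart from those of the antisense partner.

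Levels are in FPKM, the authors' number of fragments divided by gene length and by the size of the library, so they can be compared between genes. Cd14 was the most abundant marker, with a median of 377 FPKM over the 6 libraries and a median rank of 45.5 among all 17739 genes. Ehf followed with 79.4 FPKM. Kcnn4 (46.8 FPKM) and Lypd3 (33.1 FPKM) came next, and their ranges over the libraries overlap. Aldh1a3 (18.9 FPKM), Kit (11.7 FPKM) and Tspan8 (8.39 FPKM) also had overlapping ranges, and Sorbs2 had 3.46 FPKM. Rab38 was listed between 0.0217 and 0.178 FPKM in every library and stood at a median rank of 13999. Low entries cannot be read as absence here, because Gapdh, which nearly every cell expresses, was listed between 0 and 0.0769 FPKM. Of the 9 genes, 8 reached 1 FPKM in 3 or more libraries, as did 9767 of all 17739 genes, while Rab38 was not measurable. Elf5 was at 141.8 to 237 FPKM and Sox10 at 43.5 to 129 FPKM. These levels do not show which cells of the organoids express the genes.

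Nmi, the targeted gene, was at 4.595, 2.82 and 2.32 FPKM in wild-type replicates 1, 2 and 3 and at 0.188, 0.547 and 0.564 FPKM in knockout replicates 1, 2 and 3, which matches the labels. Libraries of the same genotype differed widely. The 20 genes of a milk protein list took 49.1%, 62.2% and 71.5% of summed FPKM in the wild-type libraries (replicates 1, 2 and 3), and 68.0%, 64.5% and 77.3% in those of the knockout. Wild-type replicate 1 and knockout replicate 3 were the ends of this range. A larger milk share leaves a smaller share of summed FPKM to all other genes together, though single genes can still be higher. Values with and without these 2 libraries are given below for each tested marker.

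All 8 markers that passed the filter (3 or more libraries with an FPKM of 1 or higher) had a lower mean level in the Nmi knockout, and none passed the test across all genes. Of the 9767 genes tested, 81.7% also had a lower mean. The log2 fold change of the markers, knockout minus wild type on log2(FPKM + 1), ran from -1.09 for Kit to -0.30 for Kcnn4, with a median of -0.76 against -0.21 for all genes tested. That median was -0.50 without wild-type replicate 1 (all genes -0.10), -0.42 without knockout replicate 3 (all genes -0.08) and -0.16 without both (all genes 0.02), where 7 of the 8 markers and 42.1% of all genes were lower. The tested markers were 8 of the 9 members, since Rab38 did not pass the filter. With limma and Benjamini-Hochberg adjustment, 0 of the 8 markers and 0 of all genes (0%) passed an adjusted p of 0.05, and each marker had an adjusted p of 0.768. Before adjustment, 130 genes (1.33%) had a limma p under 0.05, of which 112 (1.15%) were lower, and 1 marker, Lypd3, was among them. The groups did not overlap for 2 markers, Lypd3 and Cd14, both lower in the knockout, as was so for 3.83% of all genes tested (4.61% in either direction). These are bulk samples, so fewer luminal progenitor or alveolar cells and less of these RNAs per cell cannot be told apart. The half-width of the 95% confidence interval ran from 0.61 (Kcnn4 and Tspan8) to 1.14 (Kit) in log2 units, and these intervals are not widened for multiple testing.

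**Figure D1:**
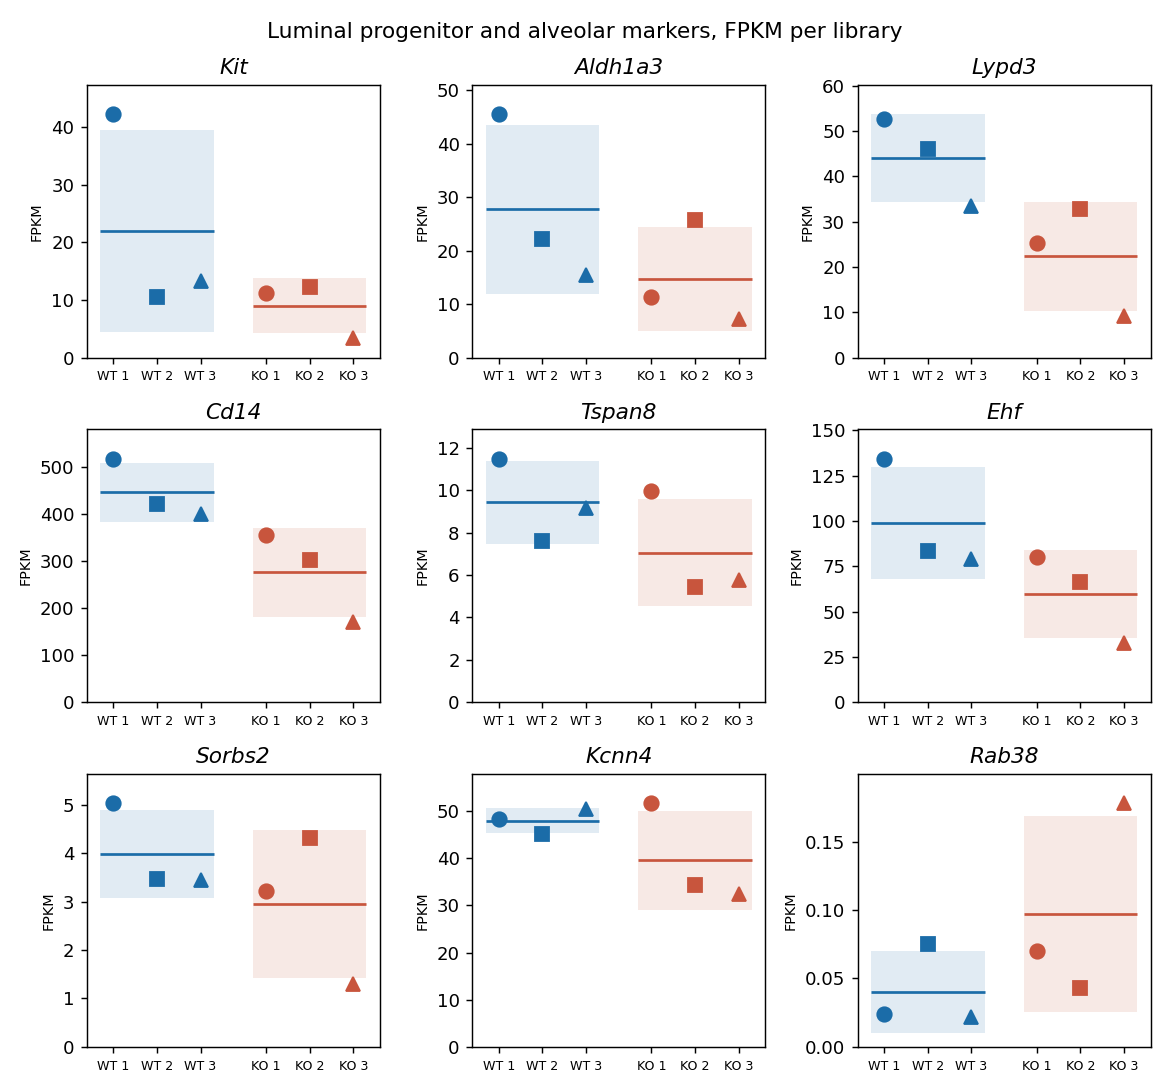
FPKM of each of the 9 markers (vertical axes, each from 0) in the 3 wild-type (WT, blue) and 3 Nmi knockout (KO, red) libraries. Each point is 1 mouse, the line is the group mean and the band is ± 1 SD; only Lypd3 and Cd14 show no overlap between the groups, and Rab38 stays under 0.178 FPKM apart from its highest point at that value.

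Among the surface receptors, Cd14 was at 517, 421 and 399.8 FPKM in wild-type replicates 1, 2 and 3 and at 355, 302 and 171 FPKM in knockout replicates 1, 2 and 3. Every knockout library lay below every wild-type library, and knockout replicate 3 was far below the other 2. Cd14 averaged 446 ± 62.7 FPKM (SD, n = 3) in wild type and 276 ± 94.9 FPKM (SD, n = 3) in the knockout, or 61.9% of wild type. The log2 fold change of Cd14 was -0.75 (SE 0.35, 95% confidence interval -1.52 to 0.02). It was -0.44 without knockout replicate 3 and -0.32 without both end libraries. For Cd14 by itself, a two-sided exact permutation test returned p = 0.1, and 3 mice against 3 cannot give less.

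Kit was at 42.2, 10.5 and 13.2 FPKM in wild-type replicates 1, 2 and 3 and at 11.2, 12.3 and 3.52 FPKM in knockout replicates 1, 2 and 3. One wild-type library was high and 1 knockout library was low, and the other 4 libraries lay between 10.5 and 13.2 FPKM whatever their genotype. Kit averaged 21.99 ± 17.6 FPKM (SD, n = 3) with Nmi intact and 9.004 ± 4.78 FPKM (SD, n = 3) in its absence, with a log2 fold change of -1.09 (SE 0.52, 95% confidence interval -2.23 to 0.05). Without wild-type replicate 1 it was -0.50, without knockout replicate 3 -0.59, and without both -0.0062. The SD was 80.0% of the mean in wild type, the largest of the 8 tested markers, where the median over all genes tested was 22.9%. The exact permutation test of Kit gave p = 0.3.

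The membrane-anchored Lypd3 was at 52.6, 46.0 and 33.6 FPKM in wild-type replicates 1, 2 and 3 and at 25.2, 32.7 and 9.26 FPKM in knockout replicates 1, 2 and 3. The groups were separated by less than 1 FPKM, between wild-type replicate 3 and knockout replicate 2. Lypd3 averaged 44.0 ± 9.66 FPKM (SD, n = 3) in wild type and 22.4 ± 11.98 FPKM (SD, n = 3) in the knockout, or 50.9% of wild type. The log2 fold change of -1.09 (SE 0.41, 95% confidence interval -1.99 to -0.19) was the one among the markers with an interval below 0 before adjustment for the number of genes. It was -0.58 without knockout replicate 3, -0.95 without wild-type replicate 1 and -0.44 without both, the lowest value of the 8 markers in the 4 remaining libraries. The exact permutation test of Lypd3 gave p = 0.1.

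Tspan8 was at 11.5, 7.62 and 9.17 FPKM in wild type and at 9.95, 5.43 and 5.79 FPKM in the knockout. Knockout replicate 1 was above 2 of the wild-type libraries, and knockout replicate 2, not 3, was the lowest. The log2 fold change of Tspan8 was -0.40 (SE 0.28, 95% confidence interval -1.01 to 0.21), and it was -0.64 without knockout replicate 1 and -0.26 without knockout replicate 2 or wild-type replicate 1, and -0.16 without both end libraries. The ion channel gene Kcnn4 was at 48.4, 45.1 and 50.4 FPKM in wild type and at 51.7, 34.4 and 32.5 FPKM in the knockout. Its wild-type libraries agreed closely (SD 5.62% of the mean), and the highest value of all was in knockout replicate 1. The log2 fold change of Kcnn4 was -0.30 (SE 0.28, 95% confidence interval -0.91 to 0.30), with -0.51 without knockout replicate 1, -0.18 without knockout replicate 3 and -0.17 without both end libraries.

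Ehf, the transcription factor, was at 134, 83.5 and 78.8 FPKM in wild-type replicates 1, 2 and 3 and at 80.0, 66.2 and 32.8 FPKM in knockout replicates 1, 2 and 3. The overlap came from knockout replicate 1 alone, which lay just above wild-type replicate 3. Ehf averaged 98.9 ± 30.8 FPKM (SD, n = 3) in wild type and 59.7 ± 24.3 FPKM (SD, n = 3) in the knockout. The log2 fold change of Ehf was -0.77 (SE 0.37, 95% confidence interval -1.59 to 0.05), and it was -0.39 without knockout replicate 3 and -0.15 without both end libraries. The exact permutation test of Ehf gave p = 0.2.

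The enzyme gene Aldh1a3 was at 45.5, 22.2 and 15.6 FPKM in wild-type replicates 1, 2 and 3 and at 11.3, 25.7 and 7.19 FPKM in knockout replicates 1, 2 and 3. Knockout replicate 2 exceeded 2 of the 3 wild-type libraries. Aldh1a3 averaged 27.8 ± 15.7 FPKM (SD, n = 3) with Nmi intact and 14.8 ± 9.73 FPKM (SD, n = 3) in its absence, a log2 fold change of -0.91 (SE 0.46, 95% confidence interval -1.92 to 0.11). It was -0.49 without wild-type replicate 1, -0.52 without knockout replicate 3, -0.11 without both and -1.38 without knockout replicate 2. The exact permutation test of Aldh1a3 gave p = 0.3. The adaptor gene Sorbs2 was at 5.03, 3.47 and 3.45 FPKM in wild type and at 3.21, 4.32 and 1.303 FPKM in the knockout. Knockout replicate 2 was again among the high libraries, and the log2 fold change of Sorbs2 was -0.41 (SE 0.30, 95% confidence interval -1.08 to 0.26). That of Sorbs2 was -0.06 without knockout replicate 3, -0.66 without knockout replicate 2 and 0.09 without both end libraries.

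Rab38 was listed at 0.0243, 0.0748 and 0.0217 FPKM in wild type and at 0.0698, 0.0431 and 0.178 FPKM in the knockout. All 6 values are under 1 FPKM and near those listed for Gapdh, and no fold change was read from them. The related GTPase gene Rab32, which shares functions with Rab38 in melanosome transport, was at 1.41 to 3.51 FPKM in wild type and 1.25 to 2.43 FPKM in the knockout.

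**Figure D2:**
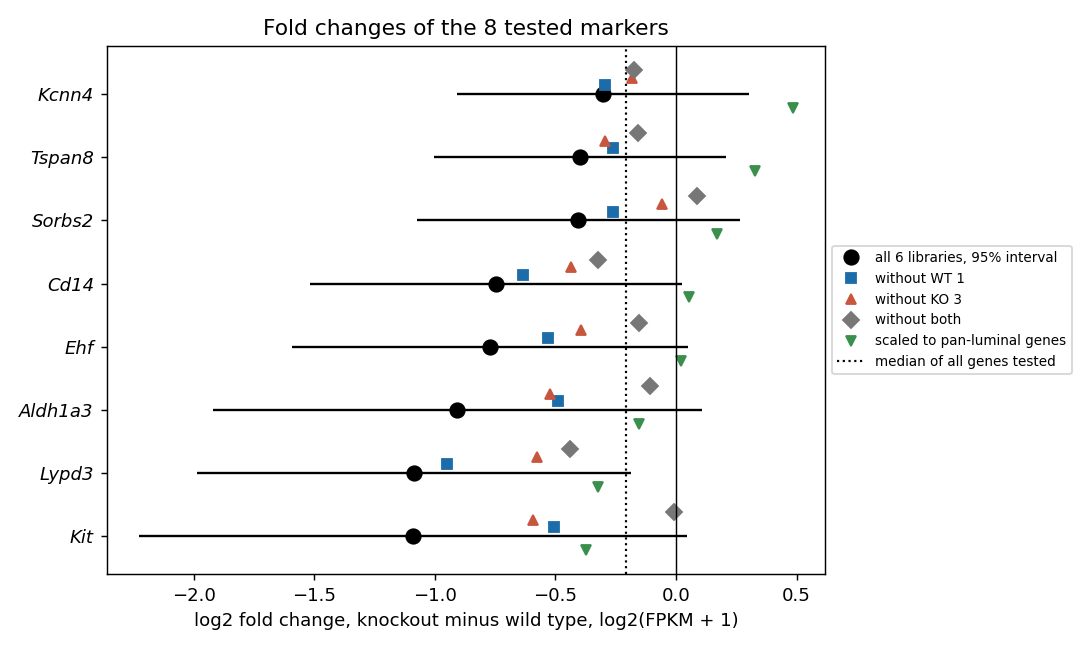
Log2 fold change (horizontal axis, knockout minus wild type on log2(FPKM + 1)) of the 8 tested markers, with the 95% confidence interval of the fit on all 6 libraries (black), the values without wild-type replicate 1, without knockout replicate 3 or without both, and those after scaling to 4 pan-luminal genes. Without both libraries the values lie between -0.44 (Lypd3) and 0.09 (Sorbs2); the dotted line is the median of all genes tested, -0.21.

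Which library was highest or lowest was nearly the same from marker to marker, a count made after the values had been seen. Wild-type replicate 1 was the highest library for 7 of the 8 tested markers (all but Kcnn4) and for 63.5% of all genes tested. Knockout replicate 3 was the lowest for 7 of the 8 (all but Tspan8) and for 65.8% of all genes, and both held for 6 markers and 50.8% of all genes. The width of the range differed. The highest library exceeded the lowest 12.02-fold for Kit, 6.33-fold for Aldh1a3 and 5.68-fold for Lypd3, but 2.12-fold for Tspan8 and 1.59-fold for Kcnn4. The likeness of 2 profiles was measured as the root mean square difference between their log2(FPKM + 1) values, each centred on the 6 libraries. By this measure Cd14 and Ehf were the closest pair (0.14), followed by Tspan8 and Kcnn4 (0.15), and Kit and Kcnn4 were the farthest apart (0.82). For Lypd3 and Kcnn4, both on chromosome 7, the difference was 0.65.

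The same measure was used to find the genes most like 4 of the markers among all other genes tested, predicted gene models left out, as a description over 6 libraries. Closest to Cd14 (whose own root mean square deviation was 0.50) were Sox10 at 0.098, Cdkn1b at 0.11 and Galnt15 at 0.11. Closest to Lypd3 (own deviation 0.78) were Ech1 at 0.11, Cd63 at 0.13 and Sh3d21 at 0.14. Closest to Aldh1a3 (0.81) were Tubb2a-ps2 at 0.064, Capn2 at 0.11 and Trim47 at 0.13. Closest to Kit (0.95) were Atp10b at 0.19, Ajuba at 0.22 and Gdpd1 at 0.25. Kit thus had the largest differences of the 4, but also the largest own deviation, to which the measure is not scaled. Each of these 12 genes was highest in wild-type replicate 1 and lowest in knockout replicate 3, as were 50.8% of all genes tested. They were picked for likeness to 4 markers that had this pattern, so the count follows largely from the choice.

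Genes that mark the whole luminal layer had the same highest and lowest library as most of the markers. None of 4 such genes passed the test (adjusted p of 0.768 each, limma with Benjamini-Hochberg adjustment), and the groups overlapped for each. The keratins Krt8 and Krt18 and the junction genes Epcam and Cldn7 were each highest in wild-type replicate 1 and lowest in knockout replicate 3, and their log2 fold changes ran from -1.10 (Krt18) to -0.55 (Cldn7). Their geometric mean was 734, 489.7 and 375 FPKM in wild-type replicates 1, 2 and 3 and 363, 467 and 149.8 FPKM in knockout replicates 1, 2 and 3. Set against this mean within each library, Cd14 was at 70.5%, 85.9% and 107% in wild type and at 97.9%, 64.6% and 114% in the knockout, so its groups overlapped and knockout replicate 3 was the highest. Lypd3 was at 7.16%, 9.39% and 8.94% in wild type and at 6.96%, 7.004% and 6.18% in the knockout, and its groups still did not overlap. On this scale the groups did not overlap for 15.5% of all genes tested, and 0.0819% were lower without overlap. Kcnn4 was at 6.59%, 9.21% and 13.4% in wild type and at 14.2%, 7.37% and 21.7% in the knockout, with the lowest value in wild-type replicate 1 and the highest in knockout replicate 3.

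Scaled to these 4 genes, the log2 fold change was -0.37 for Kit, -0.32 for Lypd3 and -0.15 for Aldh1a3, which kept the lower direction. It turned to the higher side for Kcnn4 (0.48), Tspan8 (0.33), Sorbs2 (0.17), Cd14 (0.053) and Ehf (0.021). On this scale 3.41% of all genes tested had a lower mean, and their median log2 fold change was 0.45, above all markers but Kcnn4. None of the 8 passed on this scale (smallest adjusted p 0.448, for Kcnn4, limma with Benjamini-Hochberg adjustment). Scaling by the trimmed mean of all genes moved the median of all genes to 0.01 and that of the markers to -0.49, with all 8 markers still lower, as were 48.6% of all genes.

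**Figure D3:**
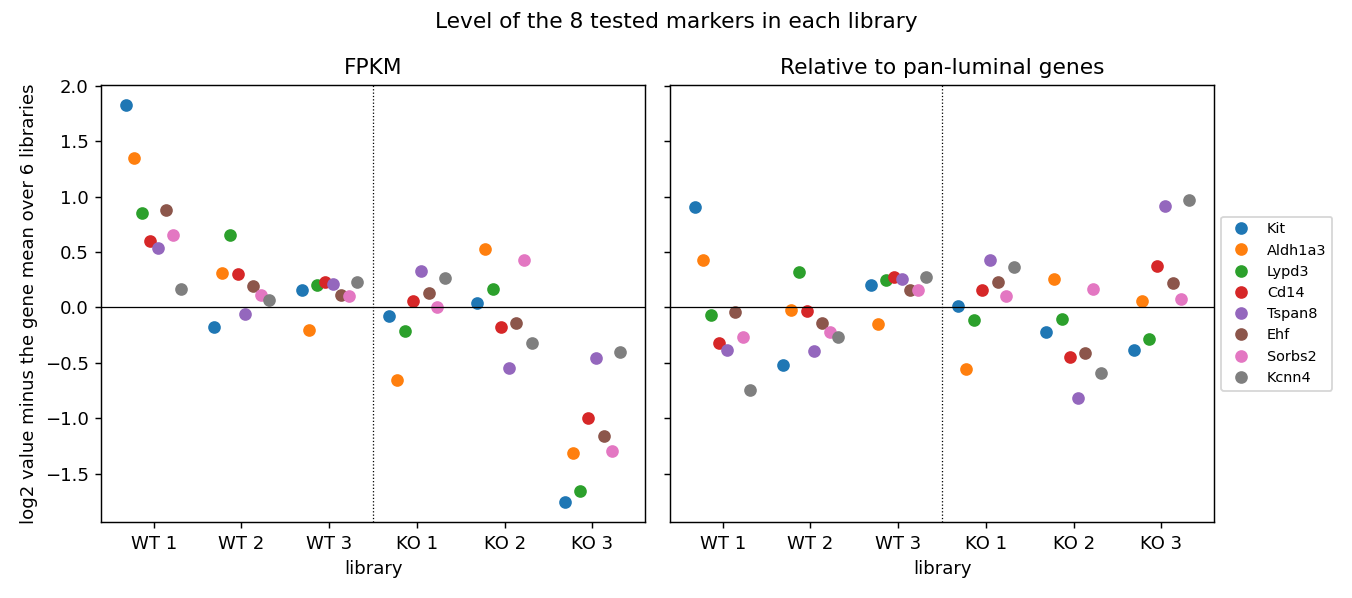
Log2 level of each of the 8 tested markers in each library minus its mean over the 6 libraries (vertical axis), as FPKM (left) and relative to the geometric mean of the 4 pan-luminal genes (right); 1 colour per gene, wild type left of the dotted line and knockout right of it. On the left the points of knockout replicate 3 are the lowest for 7 markers, and on the right they spread to both sides of 0, with Kcnn4 and Tspan8 at the top and Kit at the bottom.

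The other known genes of luminal progenitor and alveolar cells did not share one direction. Of 24 such genes, 23 were tested, 0 passed the adjusted threshold, 14 had a lower and 9 a higher mean, and their median log2 fold change was -0.16. Of all genes tested, 81.7% had a lower mean, with a median of -0.21. At an unadjusted limma p under 0.05 were 2 of them, both lower, as were 1.15% of all genes tested. The groups did not overlap for 1 of the 23, which was higher in the knockout. Over all genes tested, 0.778% were higher and 3.83% lower without overlap. The vitamin D hydroxylase gene Cyp24a1 was at 63.1, 49.2 and 60.5 FPKM in wild type and at 17.2, 64.2 and 8.73 FPKM in the knockout, so 2 knockout libraries were far below and 1 was above all wild-type libraries. Lurap1l had a log2 fold change of -0.83 (SE 0.37), Basp1 of -0.77 (SE 0.42) and Sox10, a transcription factor, of -0.58 (SE 0.34), each with an adjusted p of 0.768 (limma with Benjamini-Hochberg adjustment). Elf5, the ETS factor needed for alveolar development, was at 173, 159 and 171 FPKM in wild type and at 237, 141.8 and 207 FPKM in the knockout. Its log2 fold change of 0.19 (SE 0.30, 95% confidence interval -0.48 to 0.85) lay on the other side of 0 from that of Ehf, and the difference between the 2 genes was not tested.

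Among the partners of the receptors, no gene passed either. Beside the counts below, 81.7% of all genes tested had a lower mean (median log2 fold change -0.21). For 3.83% of all genes the groups did not overlap and the knockout was lower. The Kit ligand gene Kitl was at 14.5 to 16.8 FPKM in wild type and 8.98 to 14.9 FPKM in the knockout, and 12 of 13 genes of Kit signalling had lower means, with a median log2 fold change of -0.31. Of these the phosphatase gene Ptpn11 had -0.47 (SE 0.29) and the Src family kinase gene Fyn -0.43 (SE 0.30). The partners of Cd14 in lipopolysaccharide sensing had fold changes nearer 0: Tlr4 had a log2 fold change of -0.13 (SE 0.23), Ly96 of 0.0087 (SE 0.25) and Lbp of -0.14 (SE 0.34). In that list 7 of 11 tested genes had lower means, with a median of -0.11, and the adaptor gene Tirap (-0.34, SE 0.24) was the 1 whose groups did not overlap. The intervals of these partners reach from -0.90 to 0.61, so changes of the size measured for Cd14 are within that of Lbp.

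Of the retinoic acid genes, 8 of 17 were tested and 6 of the 8 had lower means (median log2 fold change -0.31). The share with lower means was 81.7% over all genes tested (median -0.21). The other retinal dehydrogenase genes Aldh1a1 and Aldh1a2 were listed under 1 FPKM in every library. The receptor gene Rarg had a log2 fold change of -0.58 (SE 0.37) and Rxrb of -0.39 (SE 0.23); the groups did not overlap for Rxrb. Of 13 tested ETS factor genes, 10 had lower means (median -0.17), among them Elf4 (-0.39, SE 0.27) and Elf3 (-0.17, SE 0.23), while Etv5 had a higher one (0.33, SE 0.25). All 6 tested genes of the Ly6 and urokinase receptor family had lower means (median -0.50). Cd59a, which protects cells from complement, had -0.76 (SE 0.30), and its groups did not overlap, and Ly6a had -0.70 (SE 0.42). Agr2, a reported ligand of Lypd3, was listed at no more than 0.145 FPKM.

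Of 16 tested tetraspanins, 13 had lower means (median -0.18), where 81.7% of all genes tested did (median -0.21). Among the 13 were Cd63 at -0.84 (SE 0.42) and Tspan17 at -0.54 (SE 0.28). The groups did not overlap for 1 tetraspanin lower and 1 higher in the knockout, beside 3.83% and 0.778% of all genes tested. The potassium channel and calcium entry list had 4 tested genes, 2 lower and 2 higher (median -0.03), with the calcium channel gene Orai1 at 0.12 (SE 0.27) and its sensor Stim1 at -0.12 (SE 0.22). The closest relatives of Kcnn4, namely Kcnn1, Kcnn2 and Kcnn3, were under 1 FPKM in every library. Among 8 adaptor and partner genes of Sorbs2, 7 had lower means (median -0.34), with Flot1 at -0.67 (SE 0.41) and Sorbs3 at -0.42 (SE 0.27). Of 13 genes of the Rab38 machinery, 11 had lower means (median -0.19), with Dtnbp1 at -0.53 (SE 0.31) and Ankrd27 at -0.41 (SE 0.26). In each of these lists 0 genes passed the adjusted threshold, as for all genes.

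Some of the markers are also expressed by cells outside the luminal layer. Cd14 is abundant in macrophages. Of 12 macrophage and monocyte genes, 7, including Adgre1, Csf1r and Mrc1, were listed under 1 FPKM in every library, which cannot be read as absence here. That list summed to 12.97 to 17.8 FPKM in wild type and 11.4 to 26.7 FPKM in the knockout, and 3 of its 4 tested genes had a higher knockout mean (median log2 fold change 0.56), with none past the test. The part of macrophages in the Cd14 level was not tested. Its most abundant genes were Lyz2, at 3.23 to 5.24 FPKM in wild type and 2.81 to 8.75 FPKM in the knockout (log2 fold change 0.49, SE 0.35), and Cd68, at 6.84 to 6.94 FPKM and 3.35 to 5.64 FPKM (-0.50, SE 0.24). Cd68 was the 1 tested gene of the list with a lower mean, and its groups did not overlap. In knockout replicate 3, where Cd14 was lowest, C1qa was at its highest (5.03 FPKM) but Cd68 at its lowest (3.35 FPKM). Lyz2 was highest in knockout replicate 2. Kit is a mast cell receptor too, and 5 mast cell genes in the table summed to 0.456 to 0.854 FPKM in wild type and 0.472 to 1.28 FPKM in the knockout, mostly Hdc, with Cpa3 listed at 0 in all libraries but 1. Kit and Rab38 are expressed by melanocytes, and 3 melanocyte genes in the table summed to 0.359 to 0.648 FPKM. Lymphocyte genes, 7 in the table, summed to no more than 0.656 FPKM, and 5 neutrophil genes to 1.305 to 8.62 FPKM, almost all of it S100a8.

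Other cell layers were present at higher levels. The 12 basal and myoepithelial genes summed to 568 to 1281 FPKM in wild type and 488 to 1632 FPKM in the knockout, with the highest sum in knockout replicate 2, where Acta2 reached 724 FPKM. On the log2 scale all 11 tested basal genes had a lower knockout mean (median -0.31), as did 81.7% of all genes tested (median -0.21). The groups of 1 basal gene did not overlap, and none passed the adjusted threshold. Hormone-sensing luminal genes, 10 in the table, summed to 38.1 to 99.4 FPKM and 28.4 to 54.3 FPKM, most of it Ly6a, and Pgr, Prom1 and Tnfsf11 were under 1 FPKM in every library. Endothelial genes summed to 78.7 to 150.5 FPKM and 70.1 to 138 FPKM, with 6 of 8 lower in mean log2 level. Fibroblast genes summed to 22.99 to 53.1 FPKM and 33.1 to 60.3 FPKM, and all 5 tested ones had a higher knockout mean (median 0.25), with none past the test. Of 7 adipocyte genes, Fabp4 (157 to 672 FPKM) made up nearly all of the sum, and the other 6, among them Adipoq and Plin1, were under 1 FPKM in every library. Genes of the stress response to tissue dissociation summed to 596 to 976 FPKM in wild type and 868 to 1588 FPKM in the knockout, highest in knockout replicate 3. Of these, 12 of 12 had a higher mean log2 level in the knockout, whereas 81.7% of all genes tested had a lower one. The groups of 2 stress genes did not overlap, both higher in the knockout, as for 0.778% of all genes tested. None of the stress genes passed the adjusted threshold. Fos was at 19.1 FPKM in wild-type replicate 1 and at 189.9 FPKM in knockout replicate 3, against 44.0 to 76.1 FPKM in the other 4 libraries. The part of these cell layers and of the stress response in the marker differences was not tested. For the milk share, the libraries were rescaled to the FPKM sum outside the 20 milk protein genes. All 8 markers then still had a lower knockout mean, as did 56.3% of all genes tested, and the median log2 fold change was -0.54 for the markers and -0.03 for all genes. On that scale it was -0.90 for Kit, -0.88 for Lypd3 and -0.53 for Cd14, but -0.20 for Tspan8 and -0.09 for Kcnn4.

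**Figure D4:**
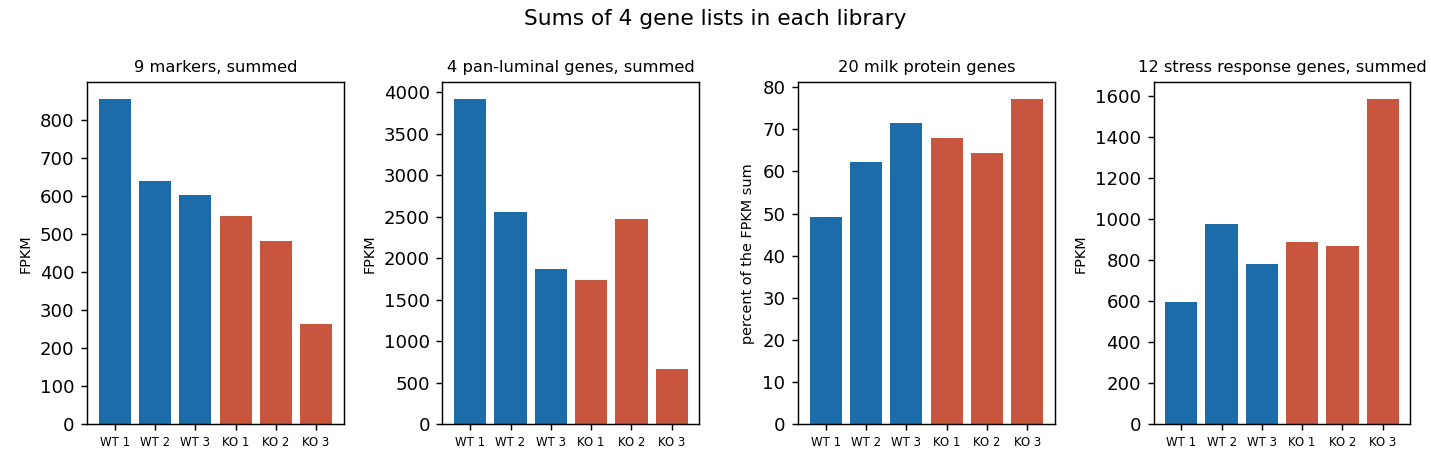
Sums per library of the 9 markers, of 4 pan-luminal genes (Krt8, Krt18, Epcam, Cldn7) and of 12 stress response genes, in FPKM, and the percent of the FPKM sum taken by 20 milk protein genes (bars from 0; blue, wild type; red, Nmi knockout; 1 bar per mouse). The marker sum lies between 263 FPKM in knockout replicate 3 and 857 FPKM in wild-type replicate 1, the same libraries that bound the milk share at 77.3% and 49.1%.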

How the data were processed

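Gene expression was measured by RNA sequencing in 6 libraries, 3 wild type and 3 Nmi knockout. The authors deposited FPKM values for 17739 gene symbols, made with TopHat, SAMtools and Cufflinks on builds named mm10 and GRCm38, per the submitters' processing notes; the sources used here give no versions, parameters or annotation. Read counts and depth are unknown, so no counting interval was computed, and precision comes from the spread between mice. The labels number each mouse; p-values measure the spread between these mice.

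The 9767 genes that reached 1 FPKM in 3 or more libraries were compared on log2(FPKM + 1) with limma 3.58.1 in R 4.3.3 (two-sided, intensity trend, Benjamini-Hochberg over all of them, threshold 0.05). A pseudocount of 1 understates the change of low genes. Single genes were also tested by exact permutation of the mean log2 level in SciPy 1.17.1. The fit was checked on simulated data for 9767 genes, with noise drawn independently for each gene. It recovered 24% of planted changes of 1 log2 unit and 80% of those of 2, with 4 false calls. Changes of 1 log2 unit were thus mostly missed in the simulation. The members and lists were chosen with earlier results of these data known. Named genes were the markers, Nmi, the genes with the smallest p in each related list (4 in the first, 2 in the others), direct partners, the 3 closest profiles of 4 markers and the 2 most abundant genes of each cell type list; Gapdh, C1qa, Csf1r, Adgre1, Mrc1, Cpa3, Fos, Kcnn1 to Kcnn3, Aldh1a1, Aldh1a2, Pgr, Prom1, Tnfsf11, Adipoq and Plin1 were named after their values were seen. The promoters, motifs, counts of markers highest or lowest in 1 library, gene-by-gene library weights and removal of both end libraries were also chosen after values were seen. Alternatives were other pseudocounts, filters and scalings, library weights and leaving out libraries. Coordinates are from GENCODE mouse release 21 on GRCm38.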

Additional observations from a re-analysis of the deposited data

How the results depend on the processing

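Each marker's fold change was recomputed under 17 alternatives. Library quality weights could not be estimated as intended. With limma's default method the estimation stopped before it converged and gave wild-type replicate 2 and knockout replicate 1 weights of 27.6 and 39.2, against 0.262 or less for the other 4 libraries, so that the fit nearly compared 1 mouse with 1 mouse. It called 7740 genes, left 5 markers lower, turned Kit (0.074), Tspan8 (0.33) and Kcnn4 (0.19), and called Aldh1a3 (-0.90), Lypd3 (-0.84) and Cd14 (-0.25) lower and Tspan8 and Kcnn4 higher. After this output had been seen, the weights were estimated gene by gene instead. Those turned Tspan8 (0.084) and Kcnn4 (0.0068), moved Kit to -0.16, Ehf to -0.25, Cd14 to -0.39, Sorbs2 to -0.12 and the median of the markers to -0.21 (all genes -0.14), and 2 genes, Nmi and Cdk5rap1, passed the threshold. The 2 filters cannot move a fold change. Under the 14 alternatives other than these and the default weights, 8 of 112 marker values turned and 0 had an adjusted p under 0.05 (limma with Benjamini-Hochberg adjustment, smallest 0.403).

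Scaling to the 4 pan-luminal genes turned Cd14 (0.053), Tspan8 (0.33), Ehf (0.021), Sorbs2 (0.17), Kcnn4 (0.48) and the median of the markers (0.037). Then 3 markers were lower, as were 3.41% of all genes. The groups of 1 marker, Lypd3, did not overlap, as for 15.5% of all genes in either direction and 0.0819% in the lower one. The 4 genes were themselves lower in the knockout, so this scaling raises every fold change. Leaving out both end libraries, added after seeing the data, turned Sorbs2 (0.085), and 1 gene, Gm7367, passed; the cause was not tested. Without 1 library at a time, between 2 and 5 markers had groups that did not overlap, which 2 mice in a group make more common: 5 without knockout replicate 1 (11.8% of all genes) and 4 without knockout replicate 2 (32.2% of all genes). All 8 stayed lower, as did 71.4% to 85.9% of all genes, and 0 genes passed. No paired analysis was possible because the labels give no number shared by mice of both genotypes.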
